A study of Mus musculus with 42 samples.

Results

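The genes described here are the mouse cathepsins and the genes of the vacuolar ATPase (V-ATPase). They were chosen by symbol from the table of embryonic stages, as every Cts gene and every gene whose symbol starts with Atp6v or Atp6ap. The choice gave 49 of 24083 genes, of which 23 were cathepsins, 10 were V0 genes, 13 were V1 genes and 3 were accessory proteins. Atp6ap1 and Atp6ap2 were the 2 X-linked members.

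Expression was measured by Smart-seq2, which reverse transcribes polyadenylated RNA from very small samples, in 42 embryo samples. The stage table held wild-type female embryos from C57BL/6N mothers and PWK/PhJ fathers: E6.5 visceral endoderm (3 samples), E9.5 yolk sac (1), 8-cell embryos (3), morulae (3), inner cell mass (2) and trophectoderm (3) of E3.5 blastocysts, E6.5 extraembryonic ectoderm (2) and E6.5 epiblast (1). A second table held morulae of the same cross, as females with XRRa deleted on the paternal X chromosome, called Xp XRRa KO in the labels (4), control females (3) and control males (4). The last table listed only X-linked genes. It held 13 female samples of E7.5 extraembryonic ectoderm called EedmNull, which came from Eed fl/fl; Gdf9-Cre mothers and wild-type PWK/PhJ fathers and so had a wild-type paternal Eed copy. Gdf9-Cre acts in the oocyte, and Eed is a gene of the Polycomb complex PRC2. Eed itself is autosomal and stands in no row of that table, and XRRa is a region with no row of its own, so neither deletion could be checked by its level. Every cross had PWK/PhJ fathers, so effects of strain and of parent cannot be told apart. Values were FPKM, fragments per kilobase of transcript scaled to library size, given for each allele. "Level" here is the maternal plus the paternal FPKM.

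The first 2 tables had 1 column per allele and group, with the replicates pooled by the authors. No spread between samples could be computed from them and no difference in them was tested. A gene is called higher or lower by a rule of size instead: at least 5 FPKM on 1 side and a ratio of at least 2 after adding 1 FPKM to both sides. Depth was unknown, since no counts were given. The columns summed to between 334639 FPKM in visceral endoderm and 446925 FPKM in extraembryonic ectoderm, but to 135523 FPKM in the single yolk sac sample. That yolk sac column listed 47.5% of the genes at 5 FPKM or more in visceral endoderm at 0, and it listed 6 of 20 such members at 0. A gene listed at 0 may be silent or may have had no allele-specific reads, and no ratio is given against a 0. The 14 visceral endoderm markers, such as Afp, Ttr and Apoa1, were all at 1 FPKM or more in visceral endoderm and summed to 4773 FPKM there. In yolk sac 11 of the 14 reached 1 FPKM with a sum of 6407 FPKM, in extraembryonic ectoderm 13 with 583 FPKM, and in epiblast 3 with 72.6 FPKM. All 8 epiblast markers were at 1 FPKM or more in epiblast, 9 of 10 trophoblast markers in extraembryonic ectoderm and 8 of 8 trophectoderm markers in trophectoderm. These lists were not confined to their own tissue. The trophectoderm markers also reached 1 FPKM in inner cell mass, 8 of 8, with 1300 FPKM beside 5035 FPKM in trophectoderm. In extraembryonic ectoderm 7 of 8 epiblast markers reached 1 FPKM, with 350 FPKM beside 753 FPKM in epiblast. The part of mixed tissue in the comparisons below was not tested.

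Cathepsins are proteases that mostly work in the acid interior of lysosomes. The V-ATPase supplies that acid: its cytosolic V1 sector hydrolyses ATP and its membrane V0 sector carries protons into the organelle. The visceral endoderm, and later the endoderm layer of the yolk sac, takes up maternal proteins by receptor-mediated endocytosis and breaks them down in large lysosome-like vacuoles to feed the embryo.

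Of the 49 members, 30 reached 1 FPKM in at least 1 of the 8 columns and 26 reached 5 FPKM. Leaving out yolk sac, 14 of the 26 V-ATPase and accessory genes but 5 of the 23 cathepsins (Ctsa, Ctsb, Ctsc, Ctsd and Ctsz) stayed at 1 FPKM or more in all 7 columns. In the single yolk sac sample 9 of the 26 and 6 of the 23 reached 1 FPKM. Another 7 members were above 0 somewhere but never at 1 FPKM: Atp6v0d2, Atp6v1b1, Atp6v1g2, Ctse, Ctsq, Ctss and Ctsw. The other 12 were listed at 0 in all 8 columns: Cts3, Cts6, Cts7, Cts8, Ctsg, Ctsj, Ctsl, Ctsm, Ctsr, Atp6v0c-ps2, Atp6v1e2 and Atp6v1g3. Ctsl, which encodes the widely expressed protease cathepsin L, was among them. In the morula table Ctsl was again listed at 0, and Cts6 had 0.333 FPKM in Xp XRRa KO females, 1.52 FPKM in control females and 0.577 FPKM in control males.

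**Figure D1:**
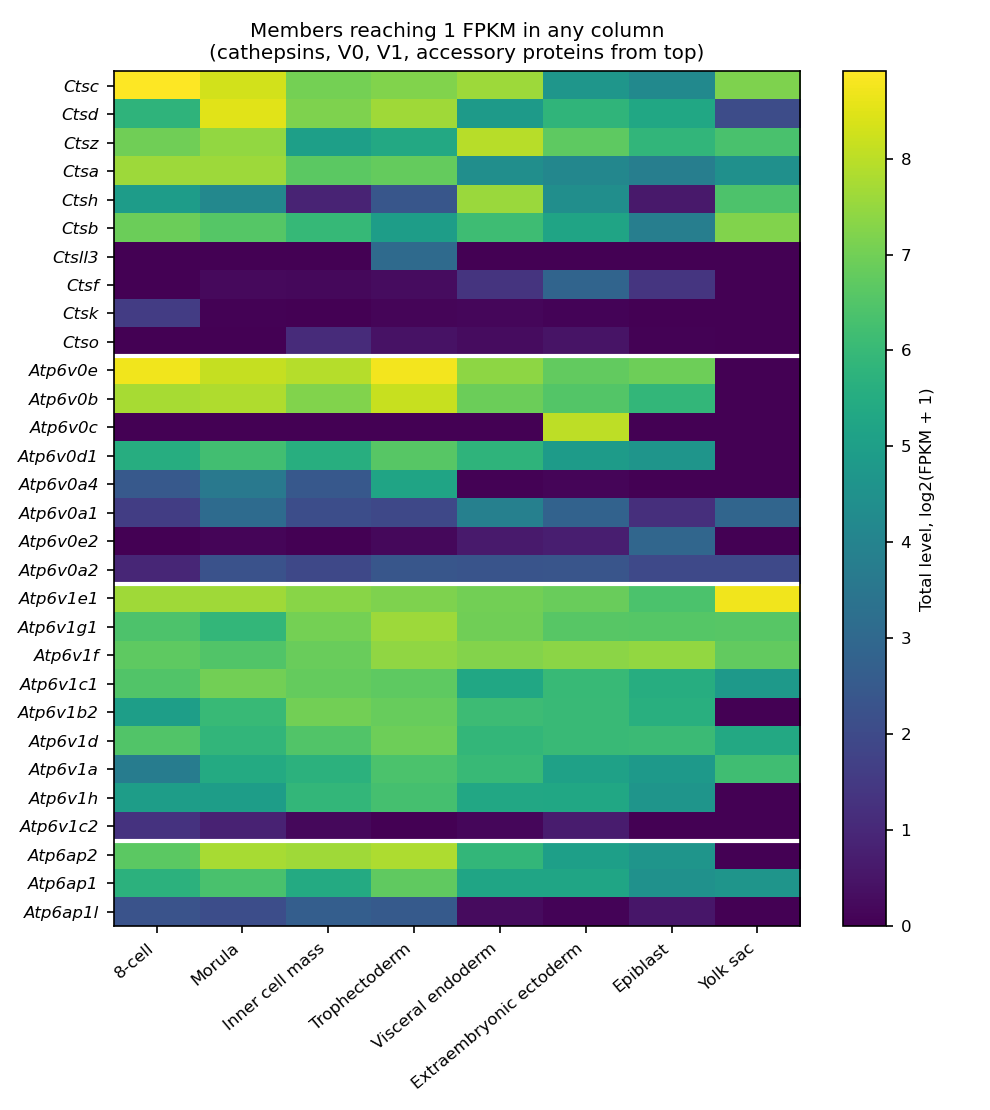
Total level (maternal plus paternal, log2 of FPKM + 1, colour) of the 30 members that reached 1 FPKM, in rows, across the 8 columns of the stage table. Ctsh is brightest in visceral endoderm (188 FPKM), Atp6v0a4 in trophectoderm (36.3 FPKM), and several V0 genes are listed at 0 in the single yolk sac sample.

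The summed cathepsin level was 747 FPKM in visceral endoderm, or 0.223% of all FPKM, and 481 FPKM in yolk sac, or 0.355%. It was 1007 FPKM (0.279%) in 8-cell embryos, 1160 FPKM (0.290%) in morulae, 473 FPKM (0.120%) in the inner cell mass, 541 FPKM (0.137%) in trophectoderm, 261 FPKM (0.0583%) in extraembryonic ectoderm and 142 FPKM (0.0384%) in epiblast. In FPKM, cathepsin RNA as listed was thus highest in morulae and 8-cell embryos, and both blastocyst columns lay below visceral endoderm. As a share of all FPKM it was highest in the single yolk sac sample. Among the E6.5 tissues it was most plentiful in visceral endoderm. Ctsl, listed at 0 in all 8 columns, adds nothing to these sums or to the order of the genes within them. In pooled tissue, fewer cells of a type and less RNA per cell cannot be told apart. The gene behind the sum changed: Ctsc led in 8-cell embryos with 47.7% of it, Ctsd led in morulae, inner cell mass and trophectoderm, Ctsz led in all 3 tissues of E6.5, and Ctsb led in yolk sac.

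Ctsh, which encodes a cysteine protease that trims peptides from their amino end, had the largest ratio between visceral endoderm and the other tissues. Its level was 188 FPKM in visceral endoderm and 84.4 FPKM in yolk sac, against 29.4 in 8-cell embryos, 16.9 in morulae, 0.860 in the inner cell mass, 4.19 in trophectoderm, 20.03 in extraembryonic ectoderm and 0.535 in epiblast. Both endodermal columns stood above each of the other 6. Ctsz, a carboxypeptidase, had 245 FPKM in visceral endoderm and 79.7 FPKM in yolk sac, against 127 in 8-cell embryos, 175 in morulae, 31.3 in the inner cell mass, 40.5 in trophectoderm, 102 in extraembryonic ectoderm and 56.6 in epiblast. Its peak was in visceral endoderm, but the yolk sac value lay inside the range of the rest.

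Ctsc, dipeptidyl peptidase I, had 194 FPKM in visceral endoderm and 145 FPKM in yolk sac, against 480 in 8-cell embryos, 317 in morulae, 132 in the inner cell mass, 149 in trophectoderm, 24.5 in extraembryonic ectoderm and 17.9 in epiblast. Ctsb, an abundant endopeptidase, had 69.6 FPKM in visceral endoderm and 147 FPKM in yolk sac, against 120 in 8-cell embryos, 94.4 in morulae, 62.2 in the inner cell mass, 29.8 in trophectoderm, 35.5 in extraembryonic ectoderm and 13.2 in epiblast. Both genes were therefore high in 8-cell embryos as well as in endoderm, and lowest in epiblast.

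Ctsa and Ctsd showed another order. Ctsa, a serine carboxypeptidase that also protects lysosomal glycosidases, had 20.4 FPKM in visceral endoderm and 21.3 FPKM in yolk sac, against 195 in 8-cell embryos and in morulae, 101 in the inner cell mass, 110 in trophectoderm, 16.3 in extraembryonic ectoderm and 13.1 in epiblast. Ctsd, the main aspartic protease of lysosomes, had 27.8 FPKM in visceral endoderm and 3.16 FPKM in yolk sac, against 54.0 in 8-cell embryos, 361 in morulae, 145 in the inner cell mass, 200 in trophectoderm, 55.2 in extraembryonic ectoderm and 38.7 in epiblast. For both, the levels after implantation were below those of morula and blastocyst, in endoderm and elsewhere.

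The remaining cathepsins were low. Ctsf had 1.51 FPKM in visceral endoderm and was listed at 0 in yolk sac, against 6.23 FPKM in extraembryonic ectoderm and 1.59 FPKM in epiblast, and stayed at or under 0.230 FPKM before implantation. Ctsk reached 1.99 FPKM in 8-cell embryos and Ctso 1.12 FPKM in the inner cell mass. Of the placental cathepsins, a rodent cluster on chromosome 13 known from trophoblast giant cells and related cells, Ctsll3 had 7.39 FPKM in trophectoderm and was listed at 0 in the other 7 columns. Ctsq had 0.175 FPKM in trophectoderm and was also listed at 0 in the other columns.

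Visceral endoderm was set against the mean of the 6 columns that were neither visceral endoderm nor yolk sac. Of the 22 members at 5 FPKM on either side, 3 were higher, namely Ctsh (log2 ratio 3.86, on FPKM + 1 here and below), Atp6v0a1 (1.58) and Ctsz (1.46). Another 6 were lower, namely Atp6v0a4 (-3.34), Ctsa (-2.31), Ctsd (-2.31), Atp6v1c1 (-1.21), Atp6ap2 (-1.16) and Atp6v0c, listed at 0 in visceral endoderm. Of all 6798 genes at that level, 13.1% were higher and 26.6% lower, so the members' shares lay near the background. The members' median log2 ratio was -0.18, beside -0.38 over all genes. With columns scaled to the upper quartile of shared genes, which moved the median of all genes to 0.18, the split was 4 higher and 4 lower of 23 members, beside 22.8% and 15.0% of all 7029 genes, and Atp6ap2 and Atp6v1c1 were no longer lower.

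The contrast with epiblast was wider. Of 21 members compared, 9 were higher in visceral endoderm and 1 lower, beside 17.7% of all 6286 genes higher and 18.7% lower. Ctsh had 188 FPKM in visceral endoderm and 0.535 FPKM in epiblast (log2 ratio 6.95), Ctsc 194 and 17.9 FPKM (3.37), Atp6v0a1 13.6 and 1.31 FPKM (2.65), Ctsb 69.6 and 13.2 FPKM (2.31), and Ctsz 245 and 56.6 FPKM (2.1). The pump genes Atp6ap2 (1.26), Atp6v1a (1.17), Atp6v0d1 (1.15) and Atp6v0b (1.03) were nearer the threshold. Atp6v0e2 was the member that was lower, with 0.562 FPKM in visceral endoderm and 6.72 FPKM in epiblast. The median over members was 0.71, against -0.19 over all genes. Epiblast markers summed to 228 FPKM in visceral endoderm (4 of 8 at 1 FPKM or more) and 753 FPKM in epiblast, and the epiblast column was 1 sample. Most of the 228 FPKM came from Fgf5 (91.9 FPKM), Otx2 (87.5 FPKM) and Utf1 (47.2 FPKM). Pou5f1, Tdgf1, Sox2 and Fgf4 were under 1 FPKM in visceral endoderm.

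Against extraembryonic ectoderm, 4 of 22 members were higher in visceral endoderm, beside 9.77% of all 6767 genes. They were Ctsh (log2 ratio 3.17), Ctsc (2.94), Ctsz (1.25) and Atp6v0a1 (1.07). Both Ctsf (-1.53) and Atp6v0c, listed at 0 in visceral endoderm, were lower, beside 26.6% of all genes. The median over members was 0.34, against -0.49 over all genes. Upper quartile scaling gave 9 higher and 2 lower of 23 members, beside 19.7% and 10.7% of all 6904 genes, adding Ctsb, Atp6ap2, Atp6v0d1, Atp6v0e and Atp6v1a. The visceral endoderm markers, at 583 FPKM in extraembryonic ectoderm and 72.6 FPKM in epiblast, followed the order of Ctsh in these tissues, and their part in the result was not tested.

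**Figure D2:**
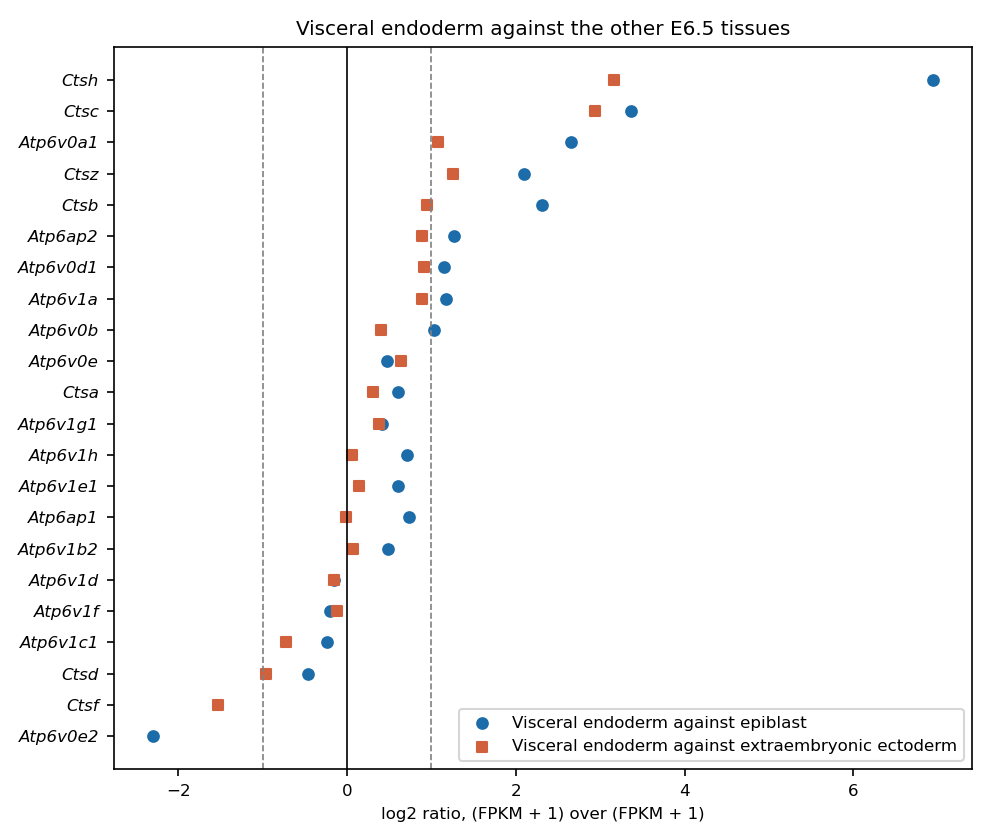
Log2 ratio (FPKM + 1) of visceral endoderm over epiblast (circles) and over extraembryonic ectoderm (squares) for each member above 0 on both sides and at 5 FPKM on 1 side. Dashed lines mark a ratio of 2 in either direction; Ctsh, Ctsc, Atp6v0a1 and Ctsz lie to the right of the upper line in both comparisons.

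Yolk sac was set against the same mean of 6 columns. Of 22 members, 3 were higher and 12 lower, beside 11.3% and 68.0% of all 6491 genes. Ctsh had 84.4 FPKM in yolk sac and 12 FPKM as the mean of the 6 columns (log2 ratio 2.72), Atp6v1e1 424 and 151 FPKM (1.49), and Ctsb 147 and 59.2 FPKM (1.30). Of the members that were lower, 8 were listed at 0 in yolk sac. Among the 14 members above 0 on both sides, a restriction chosen after seeing the data, 3 were higher and 4 lower, beside 21.5% and 38.6% of the 3367 genes that met it. Those 4 were Ctsd (-5.11), Ctsa (-2.25), Atp6v1c1 (-1.68) and Atp6ap1 (-1.19). Upper quartile scaling gave 5 higher and 10 lower of the 22, beside 22.2% and 55.9% of all 6635 genes, so that the share of members higher lay near the background.

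Set against visceral endoderm, yolk sac had 2 of 20 members higher and 9 lower, beside 8.48% and 60.2% of all 5982 genes. Above 0 on both sides the counts were 2 and 3 of 14 members, beside 15.0% and 28.4% of 3316 genes. Atp6v1e1 (log2 ratio 1.73) and Ctsb (1.07) were higher in yolk sac. Ctsd (-2.79), Ctsz (-1.61) and Ctsh (-1.15) were lower, and Ctsh missed the threshold at -0.76 with upper quartile scaling. Blood and endothelial markers summed to 313 FPKM in yolk sac and 5.23 FPKM in visceral endoderm, with 1 of 10 markers at 1 FPKM or more in each; in yolk sac this was the embryonic globin gene Hbb-bh1, and 8 markers were at 0. Macrophage markers summed to 23.0 FPKM in yolk sac, with 3 of 6 at 1 FPKM or more, and to 1.83 FPKM in visceral endoderm, with 1 of 6. Markers of yolk sac muscle and mesenchyme summed to 23.4 FPKM in yolk sac, with 1 of 6 at 1 FPKM or more and 5 at 0, and to 0.849 FPKM in visceral endoderm, with 0 of 6. The part of these cells in the yolk sac levels was not tested.

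The V-ATPase genes summed to 1129 FPKM in visceral endoderm, or 0.337% of all FPKM, and to 800 FPKM (0.590%) in yolk sac, against a highest sum of 2203 FPKM (0.558%) in trophectoderm. The other sums were 1479 FPKM (0.410%) in 8-cell embryos, 1571 FPKM (0.394%) in morulae, 1538 FPKM (0.390%) in the inner cell mass, 1206 FPKM (0.270%) in extraembryonic ectoderm and 823 FPKM (0.223%) in epiblast. The extraembryonic ectoderm sum was 949 FPKM without Atp6v0c. In FPKM the sum was thus highest in trophectoderm, and as a share of all FPKM it was highest in the single yolk sac sample. Atp6v1e1 alone gave 424 of the 800 FPKM in yolk sac, where 9 of the 26 genes reached 1 FPKM. The yolk sac share thus rested largely on 1 gene.

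In the membrane sector, Atp6v0e, a small subunit, had 168 FPKM in visceral endoderm and was listed at 0 in yolk sac, against 417 in 8-cell embryos, 279 in morulae, 240 in the inner cell mass, 434 in trophectoderm, 108 in extraembryonic ectoderm and 121 in epiblast. Atp6v0b, a proton-carrying subunit of the rotor ring, had 119 FPKM in visceral endoderm and was listed at 0 in yolk sac, against 212 in 8-cell embryos, 228 in morulae, 147 in the inner cell mass, 285 in trophectoderm, 90.2 in extraembryonic ectoderm and 58.0 in epiblast. Both were highest in trophectoderm. Atp6v0d1, which joins the rotor to the stalk, had 55.2 FPKM in visceral endoderm and was listed at 0 in yolk sac, against 24.3 FPKM in epiblast to 95.3 FPKM in trophectoderm. Its paralog Atp6v0d2 never passed 0.0899 FPKM.

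Atp6v0c, which encodes most of the rotor ring, was listed at 0 in 7 columns and at 256 FPKM in extraembryonic ectoderm, all of it paternal. This subunit is part of every V-ATPase. In all, 180 genes were at 5 FPKM or more in extraembryonic ectoderm and at 0 in the other 7 columns, of which 36 had only paternal and 58 only maternal FPKM. No other column had more than 3 genes of that kind. Whether the reads of this column were assigned to alleles as in the other columns is not given in the sources used here, which bears on every value set against extraembryonic ectoderm. Atp6v0c counts among the members lower in visceral endoderm through that value alone. Without it, among the 21 members above 0 on both sides, 5 were lower against the mean of the 6 columns. The share over all 6604 such genes was 24.5%, so the members lay near the background. Against extraembryonic ectoderm 1 of 21 was lower, beside 24.5% of all 6570 such genes.

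The V0 subunit a anchors the stator and sets where the pump is placed, and the gene with the highest level differed between tissues. Atp6v0a1 had 13.6 FPKM in visceral endoderm and 6.56 FPKM in yolk sac, against 2.05 in 8-cell embryos, 7.73 in morulae, 3.29 in the inner cell mass, 2.81 in trophectoderm, 5.91 in extraembryonic ectoderm and 1.31 in epiblast. It made up 77.3% of the FPKM of the 3 subunit a genes among the members in visceral endoderm and 69.0% in yolk sac. Atp6v0a4, known for the acid-secreting cells of kidney, had 0.0322 FPKM in visceral endoderm and was listed at 0 in yolk sac, against 4.63 in 8-cell embryos, 11 in morulae, 4.52 in the inner cell mass, 36.3 in trophectoderm, 0.0913 in extraembryonic ectoderm and 0 in epiblast. It made up 83.8% of the subunit a FPKM in trophectoderm. Atp6v0a2, known from Golgi and endosomes, stayed between 0.957 FPKM in 8-cell embryos and 4.21 FPKM in trophectoderm, and led in epiblast with 68.7% of the 3 genes. The fourth gene, Tcirg1, lies outside the Atp6v symbols. It had 2.42 FPKM in visceral endoderm and was listed at 0 in yolk sac, against 4.49 in 8-cell embryos, 22.2 in morulae, 0.478 in the inner cell mass, 0.516 in trophectoderm, 6.34 in extraembryonic ectoderm and 1.26 in epiblast. In morulae and extraembryonic ectoderm it stood above each of the 3 members, with 49.7% and 38.4% of the FPKM of all 4 genes. With Tcirg1 counted, Atp6v0a1 held 68.0% in visceral endoderm, Atp6v0a4 82.8% in trophectoderm and Atp6v0a2 52.9% in epiblast.

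**Figure D3:**
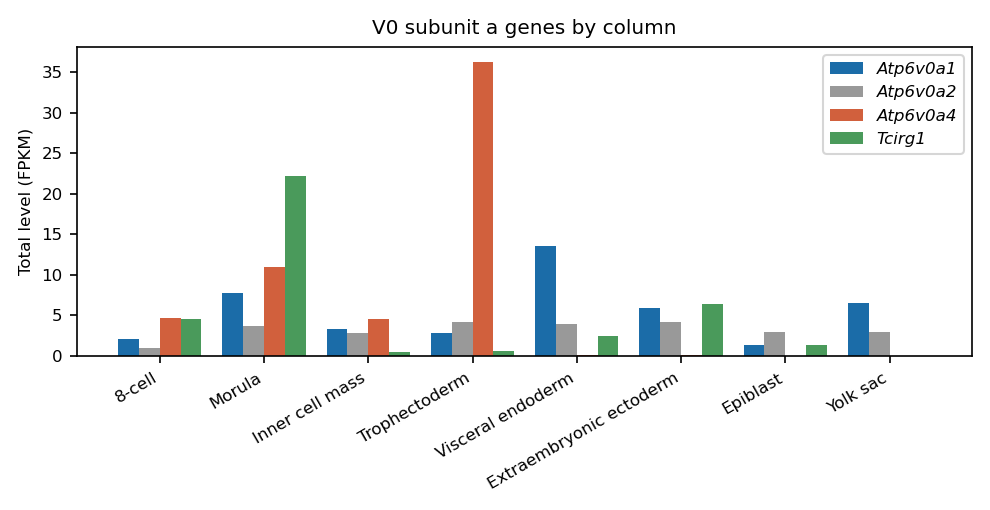
Total level (FPKM, bars) of Atp6v0a1, Atp6v0a2, Atp6v0a4 and Tcirg1, which is no member, in each column of the stage table. Tcirg1 is highest in morulae (22.2 FPKM). Atp6v0a4 is present from the 8-cell stage to trophectoderm (36.3 FPKM) and at or under 0.0913 FPKM afterwards, where Atp6v0a1 leads in visceral endoderm (13.6 FPKM) and yolk sac (6.56 FPKM).

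In the V1 sector, Atp6v1e1 and Atp6v1g1, which form the outer stalks, stood at 127 and 125 FPKM in visceral endoderm. Atp6v1e1 had 424 FPKM in yolk sac, against a range from 83.1 FPKM in epiblast to 200 FPKM in 8-cell embryos over the 6 other columns. Atp6v1g1 had 95.0 FPKM in yolk sac, against 58.9 FPKM in morulae to 195 FPKM in trophectoderm. Atp6v1f, of the central shaft, had 152 FPKM in visceral endoderm and 108 FPKM in yolk sac, against 88.6 FPKM in morulae to 174 FPKM in epiblast. Of these, only Atp6v1e1 had its yolk sac level outside the range of the others. Of the catalytic hexamer, Atp6v1b2 had 68.7 FPKM in visceral endoderm and was listed at 0 in yolk sac, against 30.9 FPKM in 8-cell embryos to 129 FPKM in the inner cell mass. Its partner Atp6v1a had 62.7 FPKM in visceral endoderm and 71.9 FPKM in yolk sac, against 12.4 FPKM in 8-cell embryos to 81.8 FPKM in trophectoderm.

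For each V1 subunit with several genes, 1 gene carried nearly all of the FPKM. Atp6v1b2 held at least 99.98% of subunit B, Atp6v1c1 at least 98.3% of subunit C and Atp6v1g1 at least 99.5% of subunit G in every column with a value. Atp6v1e1 held all of subunit E, since the testis gene Atp6v1e2 was listed at 0. Among V0 genes, Atp6v0e held 94.7% of subunit e in epiblast and at least 99.4% in the other columns with a value. The exception in epiblast was Atp6v0e2, at 6.72 FPKM there and at most 0.686 FPKM elsewhere.

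The 2 X-linked accessory proteins were also highest in trophectoderm. Atp6ap1, known as Ac45, which helps to assemble the pump, had 36.7 FPKM in visceral endoderm and 24.3 FPKM in yolk sac, against 51.8 in 8-cell embryos, 81.0 in morulae, 43.1 in the inner cell mass, 106 in trophectoderm, 37.0 in extraembryonic ectoderm and 21.6 in epiblast. Atp6ap2, also known as the prorenin receptor, had 58.8 FPKM in visceral endoderm and was listed at 0 in yolk sac, against 101 in 8-cell embryos, 214 in morulae, 200 in the inner cell mass, 225 in trophectoderm, 31.4 in extraembryonic ectoderm and 23.9 in epiblast. Atp6ap1l, an autosomal relative, lay between 3.26 and 5.31 FPKM before implantation and at or under 0.453 FPKM in every later column.

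Before implantation, morulae were set against 8-cell embryos. Of 21 members, 6 were higher and 0 lower, beside 31.9% and 6.21% of all 5541 genes. Ctsd had 361 FPKM in morulae and 54.0 FPKM in 8-cell embryos (log2 ratio 2.72). The other 5 were pump genes: Atp6v1a (1.70), Atp6v0a1 (1.52), Atp6v0a4 (1.09), Atp6ap2 (1.07) and Atp6v1b2 (1.02). The members' median was 0.10, against 0.49 over all genes. With upper quartile scaling, which moved the median of all genes to 0.21, 3 were higher (Ctsd, Atp6v1a and Atp6v0a1) and 1 was lower (Ctsh), beside 23.9% and 11.3% of all 5368 genes.

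Inner cell mass was set against trophectoderm. Of 21 members, 1 was higher and 3 were lower, and 24.8% of all 6400 genes were higher or lower. Atp6v0a4 had 4.52 FPKM in the inner cell mass and 36.3 FPKM in trophectoderm (log2 ratio -2.76), and Atp6ap1 43.1 and 106 FPKM (-1.28). Ctsll3 was listed at 0 in the inner cell mass. Ctsb was higher, with 62.2 FPKM in the inner cell mass and 29.8 FPKM in trophectoderm (1.04), and missed the threshold at 0.92 with upper quartile scaling. That scaling gave 0 higher and 5 lower of 20 members, beside 10.5% and 13.3% of all 6034 genes. The members' median was -0.46, against 0.10 over all genes.

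Other lysosomal genes were listed by their known roles and counted by the same rule. Against epiblast, visceral endoderm was higher for 8 of 15 hydrolases compared and lower for 1, for 7 and 0 of 11 membrane and transport genes, for 3 and 1 of 7 sorting and TFEB-family genes, and for 4 and 0 of 7 V-ATPase partners. For Ragulator and Rag GTPase genes, which tie the lysosome to growth signalling, the counts were 0 and 2 of 9. Of all genes compared with epiblast, 17.7% were higher and 18.7% lower. Against the mean of 6 columns, 5 of 21 hydrolases were higher and 12 lower, 2 of 16 membrane genes were higher and 6 lower, and 1 of 10 sorting genes was higher and 4 lower. The V-ATPase partners had 3 of 8 higher and 2 lower there, and the Ragulator and Rag genes 0 and 1 of 8. Of all genes compared with that mean, 13.1% were higher and 26.6% lower.

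Some genes of these lists differed widely between tissues. Lgmn, which encodes the protease legumain that processes cathepsins, had 281 FPKM in visceral endoderm and 284 FPKM in yolk sac, against a mean of 46.0 FPKM in the 6 other columns. Lipa, the lysosomal acid lipase, had 17.4 FPKM in visceral endoderm and 11.8 FPKM in yolk sac, against 1.07 FPKM. Tfec, a transcription factor of the TFEB family, had 13.4 FPKM in visceral endoderm and 1.97 FPKM in yolk sac, against 0.165 FPKM. Going the other way, Gm2a, an activator of ganglioside breakdown, had 1.39 FPKM in visceral endoderm and 1390 FPKM in trophectoderm, and Psap, the precursor of the saposins, 2.61 and 780 FPKM. The cystatins, which block cysteine cathepsins, differed between themselves: Cst3 had 274 FPKM in visceral endoderm, against a mean of 110 FPKM in the 6 columns, and Cstb had 204 FPKM against 747 FPKM.

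TFEB and its relatives are known to bind a motif, often called CLEAR, around an E-box in promoters of lysosomal genes. The 8-base motif TCACGTGA and its core CACGTG, each identical on both strands, with every match to the first also a match to the second, were searched in RefSeq promoter windows of 300 bases (250 before and 50 after the gene start, GRCm38.p6). Of the members, 37 had a window and 12, among them Ctsh and Ctsb, had none. TCACGTGA was found for 5 of these 37 members (13.5%) and for 1.12% of all 27025 genes with a window; CACGTG was found for 9 (24.3%) and for 8.09%. The 5 are shown because they hold the full motif; capitals mark it, and each stretch reads along the gene's strand.
Ctsa, chr2:164833758-164833786, plus strand: tgTCACGTGAtgcagatgcTCACGTGAcc
Ctsd, chr7:142387908-142387937, minus strand: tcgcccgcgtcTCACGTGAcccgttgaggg
Atp6v0d1, chr8:105566050-105566079, minus strand: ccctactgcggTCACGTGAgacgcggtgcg
Atp6v0e, chr17:26676387-26676416, plus strand: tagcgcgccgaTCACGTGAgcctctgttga
Atp6v1a, chr16:44139373-44139402, minus strand: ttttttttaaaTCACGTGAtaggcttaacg

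Counted from 0 at the gene start, the motif began at -13 and at 4 in Ctsa, at -99 in Ctsd, at -4 in Atp6v0d1, at 2 in Atp6v0e and at -132 in Atp6v1a. Of these 5 genes, Ctsa and Ctsd were lower in visceral endoderm than in the mean of the 6 columns, and Atp6v0d1, Atp6v0e and Atp6v1a were neither. The core alone was in the windows of Atp6v0b, Ctsf, Ctsl and Ctsll3. Set against epiblast, Atp6v0d1, Atp6v1a and Atp6v0b were higher in visceral endoderm, and Ctsa, Ctsd and Atp6v0e were neither. Neither string was in the windows of Ctsc, Ctsz, Atp6v0a1 or Atp6ap2, which were also higher in visceral endoderm than in epiblast. Against the mean of the 6 columns, Ctsz and Atp6v0a1 were higher, Atp6ap2 was lower and Ctsc was neither. A match is a description of the sequence and not a bound site.

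The paternal share, the paternal FPKM as a percentage of the level, was taken for members at 1 FPKM or more. For autosomal members its median was 48.5% in visceral endoderm (20 members) and 49.1% in yolk sac (14), against 44.1% in 8-cell embryos (22), 43.8% in morulae (21), 47.0% in the inner cell mass (21), 47.5% in trophectoderm (22), 47.0% in extraembryonic ectoderm (21) and 43.8% in epiblast (20). Medians over all autosomal genes lay between 46.8% in 8-cell embryos and 50% in yolk sac. In visceral endoderm all 20 autosomal members lay between 30% and 70%, as did 92.1% of all autosomal genes.

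Some members had a paternal share under 50% in every column other than yolk sac. Atp6v1f was between 31.8% in morulae and 45.5% in the inner cell mass and under 50% in all 7 columns other than yolk sac. Atp6v0b, Atp6v0e, Atp6v1c1 and Atp6v1h were also under 50% in all 7, with highest shares of 49.3%, 45.3%, 49.3% and 49.1%. Medians over all autosomal genes in these 7 columns were themselves under 50%, from 46.8% in 8-cell embryos to 49.2% in epiblast. These made 5 of the 16 autosomal members at 5 FPKM or more in all 7 columns (31.2%), beside 17.5% of the 3042 autosomal genes at that level. Atp6v1f was again under 50% in the morula table, at 39.6% in Xp XRRa KO females, 35.5% in control females and 39.0% in control males.

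Others leaned to the paternal allele, before implantation above all. Ctsb was 43.5% paternal in visceral endoderm and 41.7% in yolk sac, against 70.4% in 8-cell embryos, 73.4% in morulae, 57.9% in the inner cell mass, 76.6% in trophectoderm, 52.3% in extraembryonic ectoderm and 49.1% in epiblast. In the morula table Ctsb was 73.4% paternal in Xp XRRa KO females, 65.3% in control females and 68.5% in control males. Atp6ap1l was between 81.0% and 96.9% in the 4 columns before implantation. In the morula table Atp6ap1l was 78.1% paternal in Xp XRRa KO females, 82.5% in control females and 59.6% in control males. Its levels there were low, at 1.72, 1.33 and 1.45 FPKM. Atp6v0a1 went the other way, with 52.6% in visceral endoderm and 55.6% in yolk sac, against 30.6% in 8-cell embryos, 30.9% in morulae, 11.8% in the inner cell mass, 27.7% in trophectoderm, 46.2% in extraembryonic ectoderm and 38.5% in epiblast. Its levels before implantation were 2.05 to 7.73 FPKM. In the morula table Atp6v0a1 was 49.9% paternal in Xp XRRa KO females, 37.5% in control females and 40.6% in control males. Further shares away from balance were those of Ctsz in trophectoderm (74.9%) and Ctsc in epiblast (71.8%). At 5 FPKM or more, shares at or under 20% or at or over 80% were found for Atp6ap1l in the inner cell mass (88.1%), Atp6v0c in extraembryonic ectoderm (100%) and Ctsa in yolk sac (0%). In yolk sac 41.3% of all autosomal genes at that level had such a share.

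Female mouse embryos first silence the paternal X chromosome and later reactivate it in the lineage of the epiblast, and the 2 X-linked members were read against that background. Atp6ap1 was 1.85% paternal in visceral endoderm and 0% in yolk sac, against 69.5% in 8-cell embryos, 31.6% in morulae, 43.6% in the inner cell mass, 29.0% in trophectoderm, 10.2% in extraembryonic ectoderm and 46.0% in epiblast. Atp6ap2 was 5.04% paternal in visceral endoderm, against 32.5% in 8-cell embryos, 43.1% in morulae, 40.4% in the inner cell mass, 32.9% in trophectoderm, 3.86% in extraembryonic ectoderm and 53.3% in epiblast. The median of X-linked genes was 0.607% in visceral endoderm and 0% in yolk sac, against 42.6% in 8-cell embryos, 26.1% in morulae, 8.49% in the inner cell mass, 4.45% in trophectoderm, 4.73% in extraembryonic ectoderm and 47.8% in epiblast. Both members stood well above that median in the blastocyst. In inner cell mass 94.1% of the 270 X-linked genes had a lower share than Atp6ap1 and 92.6% a lower share than Atp6ap2, and in trophectoderm these were 91.9% and 94.5% of 272 genes.

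In trophectoderm the paternal copies still gave 30.8 FPKM of Atp6ap1 and 74.1 FPKM of Atp6ap2. In visceral endoderm they gave 0.679 FPKM of Atp6ap1 and 2.97 FPKM of Atp6ap2, beside 36.03 and 55.9 FPKM from the maternal copies. The epiblast column, from 1 sample, had both copies at similar levels: 9.92 FPKM paternal and 11.7 FPKM maternal for Atp6ap1, and 12.8 FPKM paternal and 11.2 FPKM maternal for Atp6ap2. In pooled tissue, cells that use both copies and a mix of cells that use 1 copy each cannot be told apart.

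**Figure D4:**
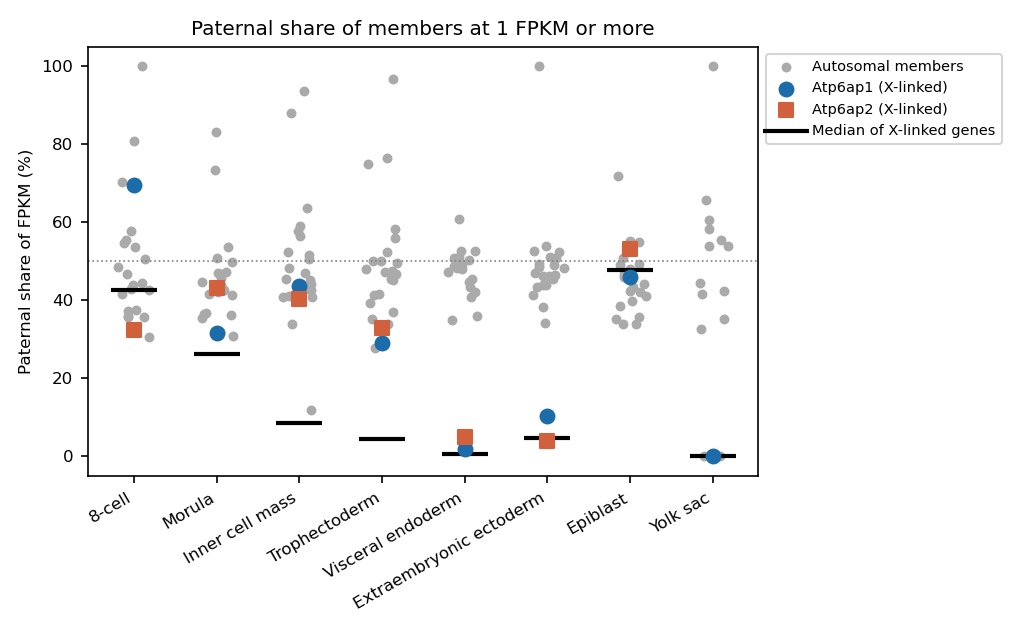
Paternal share of FPKM (%) in each column of the stage table for autosomal members (grey), Atp6ap1 (blue circles) and Atp6ap2 (orange squares), all at 1 FPKM or more; black bars are the median of X-linked genes. In inner cell mass and trophectoderm both X-linked members lie between 29.0% and 43.6%, above medians of 8.49% and 4.45%.

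In the morula table, Xp XRRa KO females were set against control females. Of 20 members, 0 were higher and 0 lower, beside 4.28% and 3.52% of all 5590 genes. The log2 ratios ran from -0.64 (Atp6v1f) to 0.54 (Ctsc), with a median of -0.16 against 0.05 over all genes. Atp6ap1 had 18.6 FPKM from the paternal and 16.7 FPKM from the maternal copy in Xp XRRa KO females, against 9.04 and 18.7 FPKM in control females. Its paternal share was 52.8% in Xp XRRa KO females, against 32.6% in control females. Atp6ap2 had 38.1 FPKM from the paternal and 73.6 FPKM from the maternal copy in Xp XRRa KO females, against 23.8 and 57.8 FPKM in control females. Its share was 34.1% in Xp XRRa KO females, against 29.2% in control females. The median of X-linked genes was 54.2% in Xp XRRa KO females and 29.3% in control females. Atp6ap1 was thus close to the median in both, while 9.68% of X-linked genes had a lower share than Atp6ap2 in Xp XRRa KO females and 48.4% in control females. Control males, which have no paternal X, had 0% for Atp6ap1 and 0.244% for Atp6ap2.

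The 13 EedmNull embryos had a column each, so that their spread could be measured. The paternal share of Atp6ap1 had a lowest value of 0%, a median of 45.7% and a highest of 81.0%, and it passed 50% in 5 of 13 embryos. For Atp6ap2 the lowest was 1.30%, the median 25.0% and the highest 74.0%, with 4 of 13 embryos above 50%. The embryos spanned nearly the whole range from maternal to paternal expression, and so did the median of X-linked genes, which ran from 0% to 80.5% with a middle value of 37.2%. Total levels varied less, from 10.6 to 19.7 FPKM for Atp6ap1 and from 11.3 to 20.3 FPKM for Atp6ap2. That table has no control embryos. In the stage table, which was normalized separately, wild-type extraembryonic ectoderm at E6.5 had 10.2% for Atp6ap1 and 3.86% for Atp6ap2.

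The paternal and maternal copies were compared in limma over the 300 X-linked genes with a mean of at least 1 FPKM. The log2 ratio of paternal to maternal FPKM + 1 was -0.77 ± 0.46 (SE, n = 13) for Atp6ap1, with a Benjamini-Hochberg adjusted p of 0.15 in limma. For Atp6ap2 it was -1.19 ± 0.48 (SE, n = 13), with an adjusted p of 0.083 in limma. Neither passed 0.05, and 0.667% of the 300 genes did, though 162 had an unadjusted p under 0.05. All 300 genes lie on the X chromosome and share the allelic balance of each embryo, so the 162 are not separate results. Exact two-sided sign-flip permutation tests gave p = 0.16 for Atp6ap1, which was higher from the paternal copy in 5 of 13 embryos, and p = 0.033 for Atp6ap2, with 4 of 13. Leaving out 1 embryo at a time gave adjusted p values in limma from 0.060 to 0.32 for Atp6ap1 and from 0.025 to 0.17 for Atp6ap2, the lowest of these without embryo 13.

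Relative to the median of X-linked genes in the same embryo, Atp6ap1 differed by a log2 ratio of -0.0011 ± 0.19 (SE, n = 13; adjusted p = 0.996 in limma) and Atp6ap2 by -0.42 ± 0.18 (SE, n = 13; adjusted p = 0.094 in limma). Of the 300 genes, 23.3% differed from their embryo's median. Exact two-sided sign-flip permutation tests gave p = 0.997 for Atp6ap1, which was above the median in 8 of 13 embryos, and p = 0.034 for Atp6ap2, above it in 3 of 13. For Atp6ap2 the adjusted p in limma was 0.040 without embryo 8 and reached 0.19 with another embryo left out. Over all alternatives, other pseudocounts and minima among them, the adjusted p of Atp6ap2 in limma reached 0.50. For Atp6ap1 the value depended on the genes that set the median: with genes at a mean of at least 5 FPKM it was 0.31, with an adjusted p of 0.037 in limma. As a share, Atp6ap1 lay above the embryo's median in 12 of 13 embryos, by 5.83 ± 4.35 points (SD, n = 13), and Atp6ap2 in 6 of 13, by -0.91 ± 6.07 points (SD, n = 13).

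**Figure D5:**
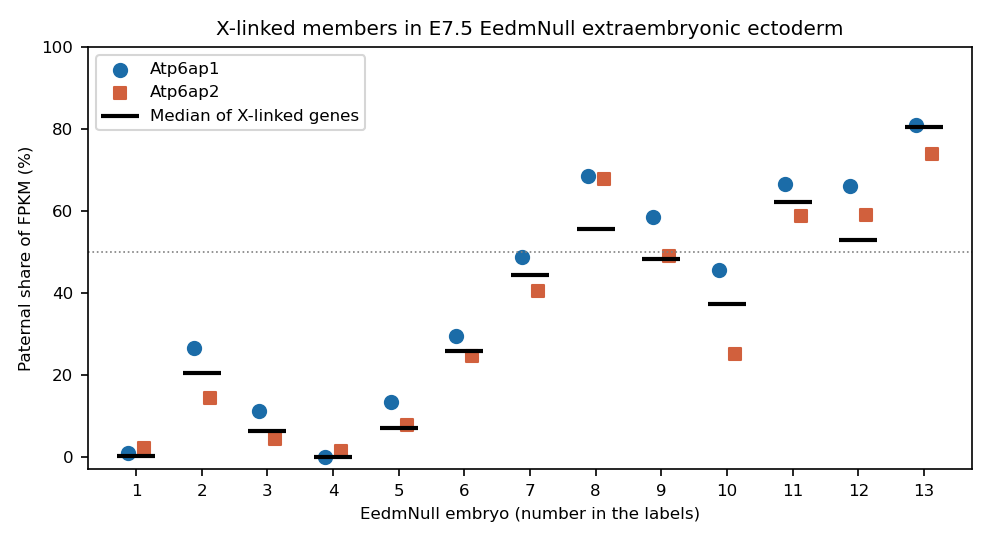
Paternal share of FPKM (%) of Atp6ap1 (blue circles) and Atp6ap2 (orange squares) in each of the 13 EedmNull embryos, with the median of X-linked genes at 1 FPKM or more (black bars). Both members move with the median, which runs from 0% to 80.5% between embryos.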

How the data were processed

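Smart-seq2 RNA-seq of 42 samples was deposited as FPKM per allele, computed by the authors. Per the submitters' processing notes the tools were Trim Galore 0.6.4, HISAT2 2.2.0 and StringTie 2.1.1 and the build was mm9; the assignment of reads to alleles is not given in the sources used here. After 5 summary lines were left out there were 24083 genes by stage, 23986 genes for the morulae and 1052 X-linked genes for EedmNull. Replicates were pooled by the authors in the first 2 tables. Depth is unknown. The labels name the 13 EedmNull samples as separately numbered embryos. The tables were normalized separately, and ratios of levels were taken only within a table. Some paternal shares were set beside those of another table, with no test.

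Alleles were summed, and pooled columns were compared by size (5 FPKM, ratio of 2, pseudocount of 1 FPKM). EedmNull log2 ratios were fitted in limma 3.58.1 (R 4.3.3, trend, intercept against 0) with Benjamini-Hochberg adjustment over all genes tested, beside exact sign-flip permutation tests. Procedures were tested on simulated data. Chromosomes and promoters came from RefSeq (GRCm38.p6), used for no position in the files' build; 23959 of 24083 genes matched. Scripts ran in Python 3.11.15 (pandas 2.3.3, scipy 1.17.1, numpy 2.4.6; figures by matplotlib 3.10.9).

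The members, gene lists and tests were chosen with earlier results of these data known. Any member could be named; values in every column were given for X-linked members, for the cathepsins and V-ATPase genes with the highest levels in visceral endoderm and for subunit paralogs, and up to 4 genes were named from each further list by their ratio in visceral endoderm. Alternatives were other pseudocounts, minima, scaling and references, sums in place of medians, and each embryo left out.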

Additional observations from a re-analysis of the deposited data

How the results depend on the processing

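No paired analysis was possible between groups because the stage and morula tables pool the replicates of a group in 1 column, and the EedmNull embryos form a single group; the paternal and maternal copies were paired within each EedmNull embryo. The counts of members called were within 1.5 times the reported ones under most alternatives; the exceptions follow. Against the highest of the 6 columns in place of their mean, visceral endoderm had 1 of 26 members higher and 15 lower, beside 4.18% and 56.0% of all genes, and yolk sac had 20 lower, beside 79.9%. Upper quartile scaling gave 5 members higher in yolk sac against the 6 columns, 9 higher in visceral endoderm against extraembryonic ectoderm, 3 higher and 1 lower in morulae against 8-cell embryos, and 0 higher and 5 lower in inner cell mass against trophectoderm. In morulae 1 member was lower with a minimum of 1 FPKM and also with no minimum. With genes above 0 on both sides, chosen after seeing the data, 4 members were lower in yolk sac against the 6 columns, 3 against visceral endoderm, and 1 in visceral endoderm against extraembryonic ectoderm. The paternal share in extraembryonic ectoderm was 55.2% as a ratio of sums, which Atp6v0c enters with 256 FPKM.

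In EedmNull embryos, the paternal-to-maternal log2 ratio ran from -0.98 to -0.50 for Atp6ap1 and from -1.39 to -0.99 for Atp6ap2 as each embryo was left out. Against the embryo median these ranges were -0.065 to 0.13 and -0.51 to -0.33. The value of Atp6ap1 against the embryo median changed sign to 0.12 with a pseudocount of 0.1 FPKM and to 0.31 with a minimum of 5 FPKM, where the median was taken over fewer genes. For Atp6ap2 against the median, adjusted p values in limma ran from 0.040 to 0.50 over all alternatives. No call of a single member in the pooled columns changed direction. Pooled columns without counts limit what can be said of any difference between tissues, and the yolk sac and epiblast columns rest on 1 sample each.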
